A study of Mus musculus with 18 samples.

Results

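The bile and organic anion transporters described here are 8 genes: Abcb11, Abcb4, Abcc2, Abcc3, Slc10a1, Slco1a1, Slco1b2 and Abcb1a. They were found by gene name among the array's 41174 probes, and every probe that carries one of the 8 names was taken, which gave 11 probes. Of these, 10 probes for 7 genes passed the detection filter, which asks that the scanner mark a probe well above background on 6 or more of 18 arrays, and Abcb1a did not pass. The filter left 25427 probes in all, for 17682 genes. The livers came from male mice of the outbred stock CD-1 that ate a powdered diet holding bisphenol A, a plasticiser monomer with weak oestrogenic activity. Exposure began at 5 weeks of age and lasted 28 days, and the mice were 9 weeks old when the tissue was taken. Control mice received the same diet at 0 µg/kg/day, low-dose mice 50 µg/kg/day (labelled TDI) and high-dose mice 5000 µg/kg/day (labelled NOAEL), doses that the submitters set from an assumed food intake rather than measured, with 6 mice a group. RNA from fragments of the large lobe of each liver was hybridised to 1 single-colour Agilent array per mouse.

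Hepatocytes take bile acids and organic anions from sinusoidal blood and pass them into the bile canaliculus, and both steps use different carriers. Slc10a1 (NTCP) is the sodium-dependent bile acid carrier of the sinusoidal membrane, and Slco1a1 and Slco1b2 are sodium-independent organic anion carriers of that membrane. At the canalicular membrane Abcb11 (BSEP) exports bile salts, Abcb4 (MDR2) flips phosphatidylcholine into bile, and Abcc2 (MRP2) exports conjugated anions such as bilirubin glucuronide. Abcc3 (MRP3) exports conjugates back to blood, and Abcb1a (MDR1A) is a P-glycoprotein best known from gut and brain capillaries. The bile acid receptor FXR, encoded by Nr1h4, binds DNA with RXR, typically at inverted repeats of the hexamer AGGTCA, and Abcb11 is among its best known target genes.

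The 250 bases before the annotated start were available in the RefSeq promoter table (build GRCm38.p6) for 7 of the 8 genes, all but Abcc3, and 4 windows are shown for the motifs they hold. Abcb11 and Slco1b2 hold an inverted repeat of the type FXR is known for, printed in capitals. Abcb4, the member with the smallest p, and Abcb1b, the gene with the highest Pearson's r with it, hold the motifs GGGCGG and CCAAT in capitals, the latter also where it lies on the other strand and reads ATTGG.
Abcb11 (chr2:69342617-69342866, minus strand): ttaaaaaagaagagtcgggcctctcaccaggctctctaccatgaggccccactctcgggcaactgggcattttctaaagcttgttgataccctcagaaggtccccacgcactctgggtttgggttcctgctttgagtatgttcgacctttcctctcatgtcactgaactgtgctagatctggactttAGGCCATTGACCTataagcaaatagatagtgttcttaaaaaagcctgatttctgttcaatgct
Slco1b2 (chr6:141629268-141629517, plus strand): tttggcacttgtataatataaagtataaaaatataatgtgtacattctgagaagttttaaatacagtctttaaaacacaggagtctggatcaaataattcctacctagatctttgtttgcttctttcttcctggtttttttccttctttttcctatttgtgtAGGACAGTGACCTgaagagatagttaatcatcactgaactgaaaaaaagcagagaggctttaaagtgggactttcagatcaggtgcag
Abcb4 (chr5:8893471-8893720, plus strand): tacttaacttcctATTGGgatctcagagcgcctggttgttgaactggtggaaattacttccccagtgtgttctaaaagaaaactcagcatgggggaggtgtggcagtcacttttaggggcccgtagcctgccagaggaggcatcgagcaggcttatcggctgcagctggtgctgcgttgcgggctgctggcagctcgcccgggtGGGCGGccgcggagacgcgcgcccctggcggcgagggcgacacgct
Abcb1b (chr5:8797897-8798146, plus strand): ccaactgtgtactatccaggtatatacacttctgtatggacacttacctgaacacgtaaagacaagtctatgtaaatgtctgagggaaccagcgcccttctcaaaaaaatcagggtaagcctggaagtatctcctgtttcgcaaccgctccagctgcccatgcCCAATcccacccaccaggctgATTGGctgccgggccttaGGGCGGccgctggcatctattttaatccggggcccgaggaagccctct

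All motifs were searched on both strands. AGGTCA was found in a window of 5 of the 7 members (Abcb11, Abcc2, Slc10a1, Slco1a1 and Slco1b2), against 14% of 32851 RefSeq promoter windows of the same length. A member was counted if any of its windows matched, and another window of Slc10a1 held no match. The perfect repeat AGGTCANTGACCT was in no member's window and in 0.00609% of all windows. The form with 1 letter left free, AGGNCANTGACCT, which was chosen after the Abcb11 window had been read, lay 63 to 51 bases before the start of Abcb11 and 88 to 76 bases before that of Slco1b2, and in 0.0335% of all windows; it contains the AGGTCA match of both windows. GGGCGG was present in Abcb4 alone among the members (32.7% of all windows), and CCAAT in Abcb4 and Abcc2 (33.8%). Abcb1b holds GGGCGG 48 to 43 bases and Abcb4 46 to 41 bases before the start. The positions of CCAAT differ, at 87 to 83 and 66 to 62 bases in Abcb1b and 237 to 233 bases in Abcb4. These are matches of letters, and no binding was measured.

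Levels below are log2 processed intensities minus the array's own 75th percentile on that scale, so 0 marks the 75th percentile of that array; levels of different probes are not compared. The 75th percentile itself averaged 230.1 ± 43.1 intensity units on control arrays (SD over 6 arrays), 295.4 ± 44.0 on low-dose arrays and 291.8 ± 34.1 on high-dose arrays, so that dosed arrays were brighter. Arrays came from 5 slides, and 4 of them held controls. With 6 arrays a group, precision is limited by their number. The tissue label was checked against hepatocyte markers, of which 9 of 10 were well above background (the other, Serpina1a, was not matched to a probe). Tests are limma's, with Benjamini-Hochberg adjustment over all genes, and a call means adjusted p under 0.05. Both doses share the same 6 controls, so their differences from control are not independent of each other.

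No transporter passed the test in any of the 3 comparisons. At the low dose 0 of the 7 measured members passed, against 0.243% of all genes tested (43 of 17681). At the high dose 0 of 7 passed, where the share over all genes was 0%. Between the doses 0 of 7 passed, against 0.0283% of all genes (5 of 17680). At an unadjusted limma p under 0.05 the members numbered 2 at the low dose (Abcb4 and Slco1b2), 1 at the high dose (Abcc2) and 1 between the doses (Abcc2), against 11.6%, 6.97% and 7.68% of all genes. The median log2 fold change of the 7 was -0.19 at the low dose, with 6 of 7 below 0, while the median over all genes was -0.02. At the high dose the members' median was -0.11, again with 6 of 7 below 0, against 0 over all genes. With another background correction (normexp) 2 of 7 were below 0 at the low dose, with a median of 0.18, so the members' common direction depends on the background correction.

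**Figure D1:**
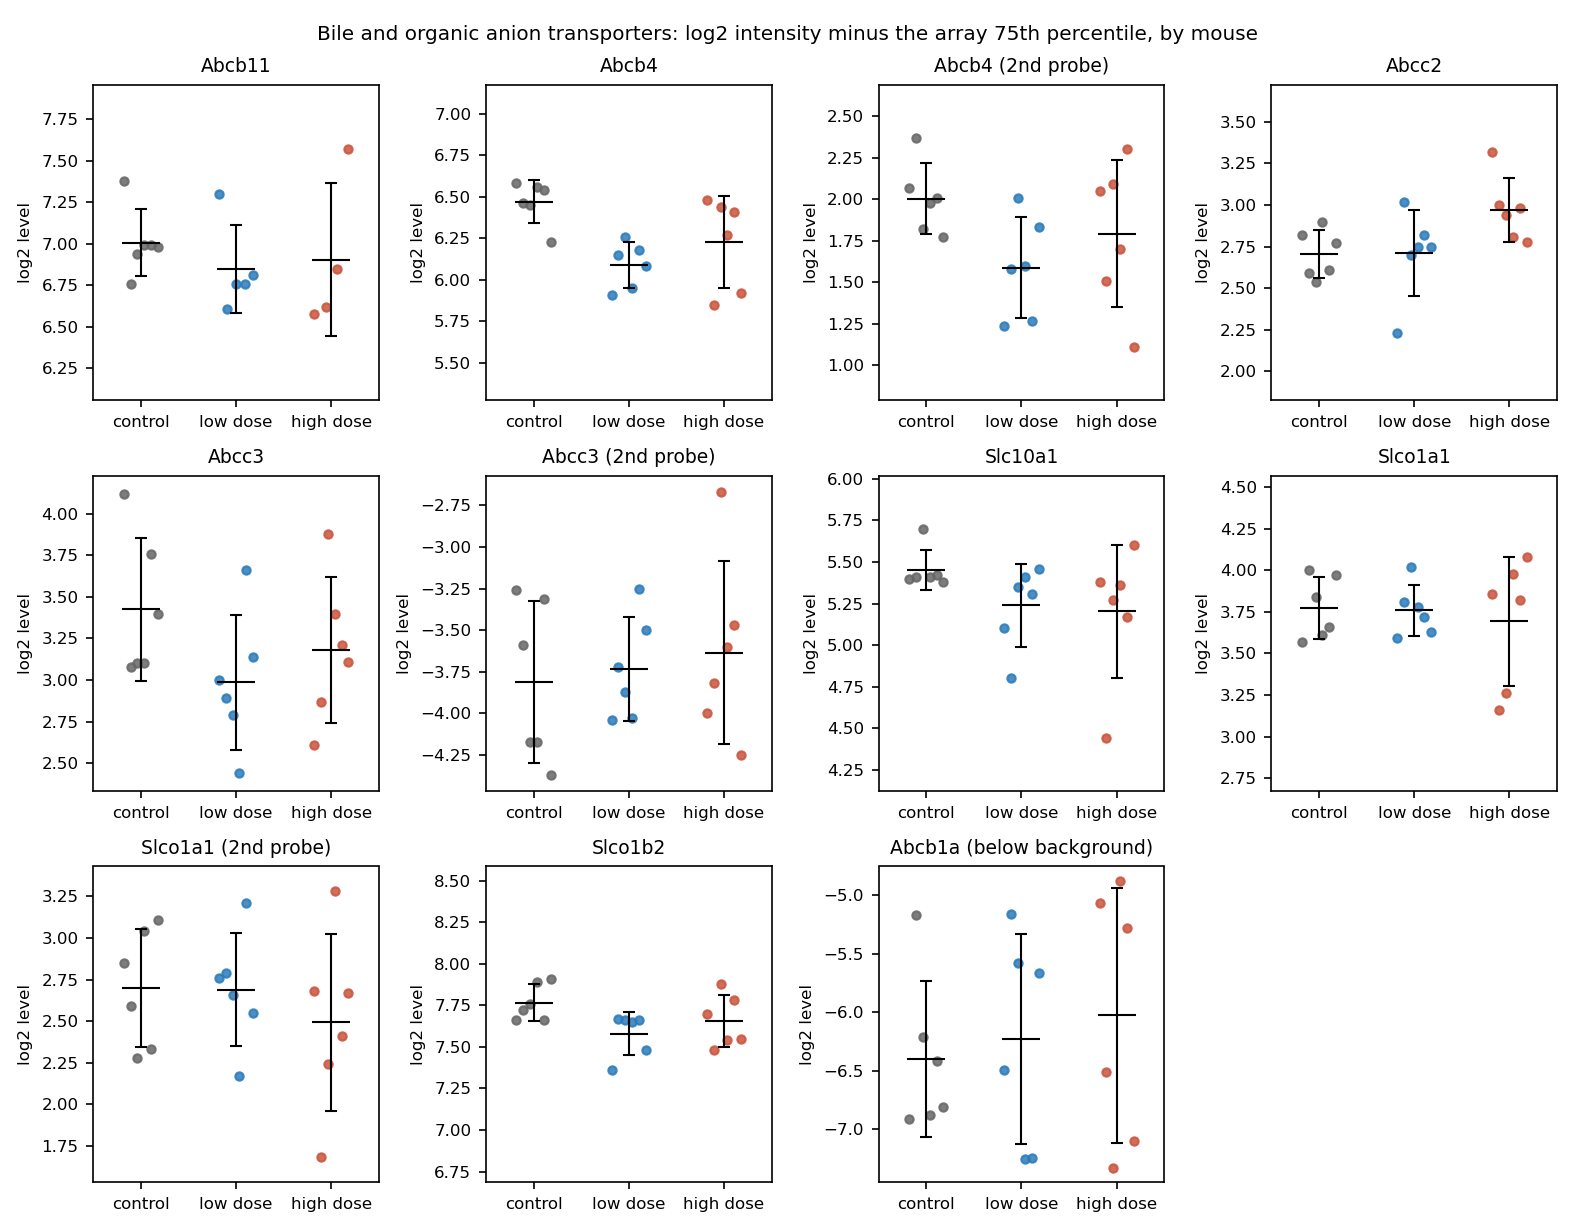
Log2 level (intensity minus the array's 75th percentile, vertical axis) of the 11 probes in each of 18 mice, by group. Points are mice, black bars the mean ± SD, and each panel has its own axis; the Abcb4 controls lie at 6.23 to 6.58, above 5 of the 6 low-dose mice.

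The canalicular phospholipid flippase Abcb4 had the smallest p of the members. Its brighter probe (A_51_P249118, chr5:8965114-8965173 in build mm8, plus strand) read 6.58, 6.46, 6.45, 6.56, 6.54 and 6.23 in controls 1 to 6, and 5.91, 6.15, 6.26, 5.95, 6.18 and 6.08 in low-dose mice 1 to 6. The high-dose mice read 6.48, 5.85, 6.44, 6.27, 6.41 and 5.92. Only 1 low-dose mouse reached the range of the controls, and the high-dose mice split into 4 within it and 2 below it. The low-dose mean differed from control by -0.38 ± 0.12 on the log2 scale (SE, n = 6 a group, 95% interval -0.63 to -0.14), 0.768 times the control level. The unadjusted limma p was 0.00426 and the adjusted p 0.182, so the gene was not called; an exact two-sided permutation test of this gene alone gave p = 0.00433, where the smallest possible is 0.00216. Low-dose mice averaged lower than controls on 4 of 4 slides, by -0.55 to -0.26. With normexp the difference was -0.04 with an limma adjusted p of 0.936, and with slide as a block it was -0.37 (adjusted p = 0.319). At the high dose it was -0.24 (interval -0.49 to 0, limma adjusted p = 0.726), and high minus low was 0.14 (adjusted p = 0.862).

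The second Abcb4 probe (A_52_P223194, chr5:8946962-8947021) gave a similar picture at lower intensity. Its level ran from 1.77 to 2.37 in controls (median 2.00), 1.24 to 2.01 at the low dose (median 1.59) and 1.11 to 2.30 at the high dose (median 1.88). The low-dose and control ranges overlapped, with 4 low-dose mice below every control. The low-dose difference was -0.42 ± 0.19 (SE; limma adjusted p over all probes = 0.371), and both Abcb4 probes correlated at r = 0.79 over 18 mice (Spearman 0.76).

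The bile salt export pump Abcb11 was read by 1 probe (A_51_P309338, chr2:69039172-69039231, minus strand). Spots of 3 arrays, 1 low-dose and 2 high-dose, carried the scanner's outlier mark and were dropped, so these values rest on 15 mice. Levels were 6.76 to 7.38 in 6 controls (median 6.99), 6.61 to 7.30 in 5 low-dose mice (median 6.76) and 6.58 to 7.57 in 4 high-dose mice (median 6.73). The groups overlapped throughout, and the highest single value was a high-dose mouse. The difference from control was -0.16 ± 0.18 at the low dose (interval -0.54 to 0.23, limma adjusted p = 0.803) and -0.10 ± 0.19 at the high dose (-0.51 to 0.31, adjusted p = 0.946). With the 3 marked spots kept these were -0.21 and -0.11; with normexp the low-dose difference turned to 0.23.

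On the brightest probe of each gene, the canalicular conjugate exporter Abcc2 was the one measured member whose mean lay above control at the high dose. Its probe (A_51_P277745, chr19:43890900-43890959, plus strand) read 2.82, 2.59, 2.54, 2.90, 2.61 and 2.77 in controls 1 to 6 and 3.32, 3.00, 2.94, 2.81, 2.98 and 2.78 in high-dose mice 1 to 6. Low-dose mice read 2.23, 3.02, 2.70, 2.75, 2.82 and 2.75. Of the high-dose mice 4 lay above every control, and the low-dose mice spanned values both below and above the controls. High dose minus control was 0.26 ± 0.12 (SE, interval 0.01 to 0.52), 1.20 times the control level, with an unadjusted limma p of 0.0452 and an adjusted p of 0.708. The exact two-sided permutation p was 0.0195. High-dose mice were higher than controls on 4 of 4 slides (0.21 to 0.52) and higher than low-dose mice on 5 of 5 (0.11 to 0.47). Without high-dose mouse 1, whose 3.32 was the highest value, the difference was 0.19, and 0.40 in a fit that carries array brightness as a covariate (limma adjusted p = 0.999). High minus low was 0.26 ± 0.12 (adjusted p = 0.649), but 0.02 with normexp, and low dose minus control was 0.01 (interval -0.25 to 0.26), but 0.31 with normexp (limma adjusted p = 0.496).

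The basolateral exporter Abcc3 varied most from mouse to mouse. Its brighter probe (A_51_P449878, chr11:94159447-94159506, minus strand) ran from 3.08 to 4.12 in controls (median 3.25), 2.44 to 3.66 at the low dose (median 2.94) and 2.61 to 3.88 at the high dose (median 3.16). All 3 groups overlapped, although 4 low-dose mice lay below every control. The low-dose difference was -0.44 ± 0.23 (interval -0.94 to 0.05, limma adjusted p = 0.503) and the high-dose one -0.25 ± 0.23 (-0.74 to 0.25, adjusted p = 0.864), the latter moving between -0.39 (without high-dose mouse 3) and -0.11 (without control mouse 1). The dimmer probe (A_52_P622067, chr11:94180461-94180520), with a median intensity of 21.6 against 2508.4 for the first, did not show the low-dose difference. It ran from -4.37 to -3.26 in controls, -4.04 to -3.25 at the low dose and -4.25 to -2.67 at the high dose, with a low-dose difference of 0.08 ± 0.25. The Abcc3 probes correlated at r = 0.65, and with the mean of both the low-dose difference was -0.18. Adjusting for array brightness gave -0.17, and normexp -0.13.

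**Figure D2:**
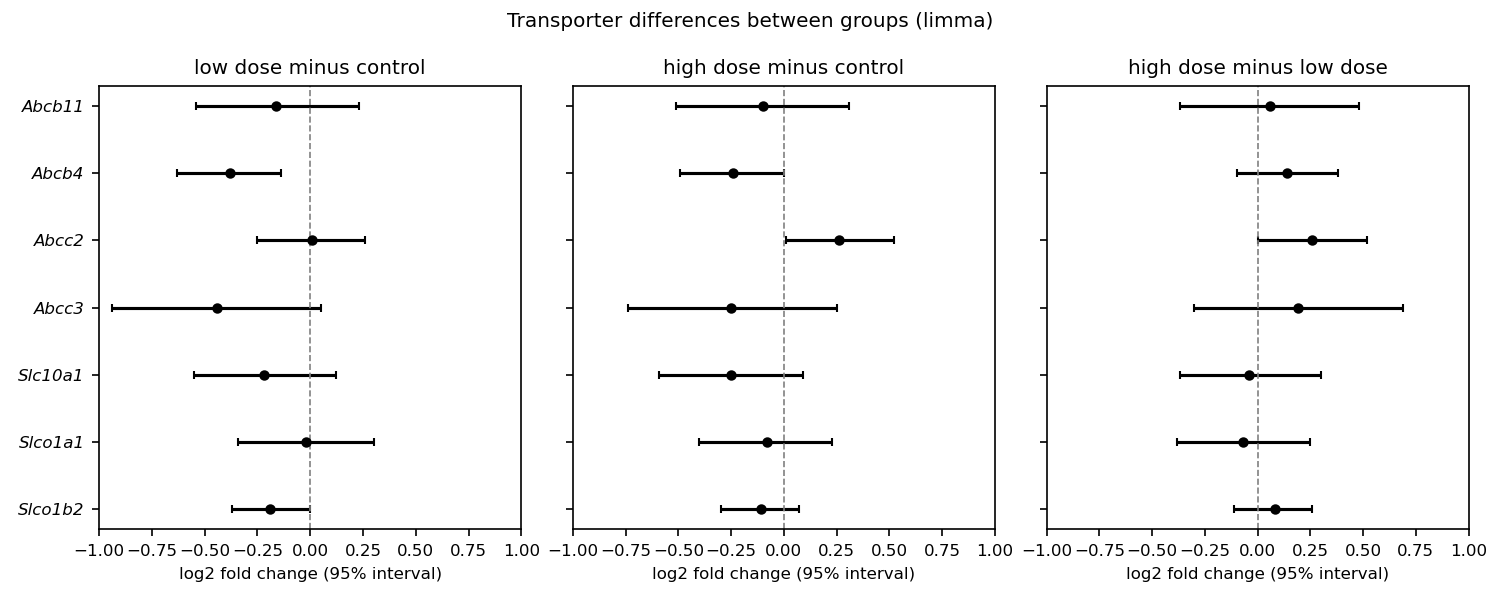
Log2 fold change (horizontal axis) of the 7 measured members in the 3 comparisons, as points with 95% intervals from limma. Abcb4 lies at -0.38 at the low dose and Abcc2 at 0.26 at the high dose, and no member was called after adjustment over all genes.

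The sodium-dependent bile acid carrier Slc10a1 (A_52_P69109, chr12:81879331-81879390, minus strand) was tightly grouped in controls and more spread in dosed mice. Controls 1 to 6 read 5.40, 5.41, 5.70, 5.41, 5.42 and 5.38, and low-dose mice 5.10, 4.80, 5.35, 5.41, 5.31 and 5.46. High-dose mice read 5.38, 4.44, 5.27, 5.36, 5.17 and 5.60. The SD was 0.12 in controls, 0.25 in low-dose mice and 0.40 in high-dose mice; whether the spreads differ was not tested. Of the low-dose mice 4 and of the high-dose mice 5 lay below every control, the closest by less than the rounding of these values, and the lowest value of each dosed group came from its mouse 2. The low-dose difference was -0.22 ± 0.16 (interval -0.55 to 0.12, limma adjusted p = 0.659), and -0.13 without low-dose mouse 2. The high-dose difference was -0.25 ± 0.16 (-0.59 to 0.09, adjusted p = 0.799), and -0.10 without high-dose mouse 2; it was lower on 4 of 4 slides, by -0.97 to -0.01. With normexp the low-dose difference turned to 0.16.

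The liver organic anion carrier Slco1b2 (A_51_P140803, chr6:141648361-141648420, plus strand) had a residual SD of 0.13, the smallest of the members, but its spot was saturated or close to it on several arrays; the part of saturation in this spread was not tested. Levels were 7.66 to 7.91 in controls (median 7.74), 7.36 to 7.67 at the low dose (median 7.66) and 7.48 to 7.88 at the high dose (median 7.63). Of the low-dose mice 4 lay below every control, while the high-dose mice overlapped both other groups. The low-dose difference was -0.19 ± 0.09 (interval -0.37 to 0.00), with an unadjusted limma p of 0.0488 and an adjusted p of 0.428, and the exact permutation p was 0.0152. The spot was saturated on 3 arrays, 1 low-dose and 2 high-dose and none of the controls, and its highest intensity was 65762.4, so those 3 values are lower bounds; control mouse 2 (64533.5) and high-dose mouse 3 (63686) were close to it without the mark. The low-dose difference was -0.21 to -0.12 within 4 slides, -0.12 with array brightness as a covariate, -0.04 after quantile normalization and 0.18 with normexp; the part of saturation in it was not tested. At the high dose it was -0.11 ± 0.09 (limma adjusted p = 0.833).

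The carrier Slco1a1, known in mice for higher expression in male than in female liver, had brighter-probe means near that of the controls in both dosed groups. The brighter probe (A_51_P103144, chr6:141871298-141871357, minus strand), which the array annotates to a transcript record of the CAST strain, ran from 3.57 to 4.00 in controls (median 3.75), 3.59 to 4.02 at the low dose (median 3.75) and 3.16 to 4.08 at the high dose (median 3.84). The groups overlapped, and 2 high-dose mice lay below every control. The difference was -0.02 ± 0.15 at the low dose (interval -0.34 to 0.30, limma adjusted p = 0.978) and -0.08 ± 0.15 at the high dose (-0.40 to 0.23, adjusted p = 0.943). The second probe (A_51_P165111, chr6:141870919-141870977) ran from 2.28 to 3.11, 2.17 to 3.21 and 1.68 to 3.28 in the control, low-dose and high-dose groups. Its differences were -0.01 ± 0.23 and -0.21 ± 0.23 (SE), and both probes correlated at r = 0.51 (Spearman 0.25).

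The P-glycoprotein gene Abcb1a (A_51_P155445, chr5:8753985-8754044, plus strand) was not well above background in controls or low-dose mice, and in the high-dose group on 1 of 6 arrays. Its intensity ran from 1.5 to 12 units over the 18 arrays, with a median of 3.1, and the single detection was the highest value, in high-dose mouse 4. No fold change is given for it. Because whole liver was measured, fewer cells of a type and less RNA per cell cannot be told apart for any of these genes.

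From mouse to mouse the members did not move as a block. Within groups Pearson's r between members ranged from -0.45 (Abcb11 and Slco1b2, 15 mice) to 0.56 (Slc10a1 and Slco1a1, 18 mice). The next highest were Abcc2 with Slco1b2 at 0.53 and Abcb4 with Slco1b2 at 0.49; the genes of a pair are read on the same arrays and share their brightness, and the values are descriptions. The residual SD was 0.43 for Abcc3, 0.31 for Abcb11, 0.28 for Slc10a1, 0.26 for Slco1a1, 0.21 for Abcc2, 0.19 for Abcb4 and 0.13 for Slco1b2, against a median of 0.29 over all genes.

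**Figure D3:**
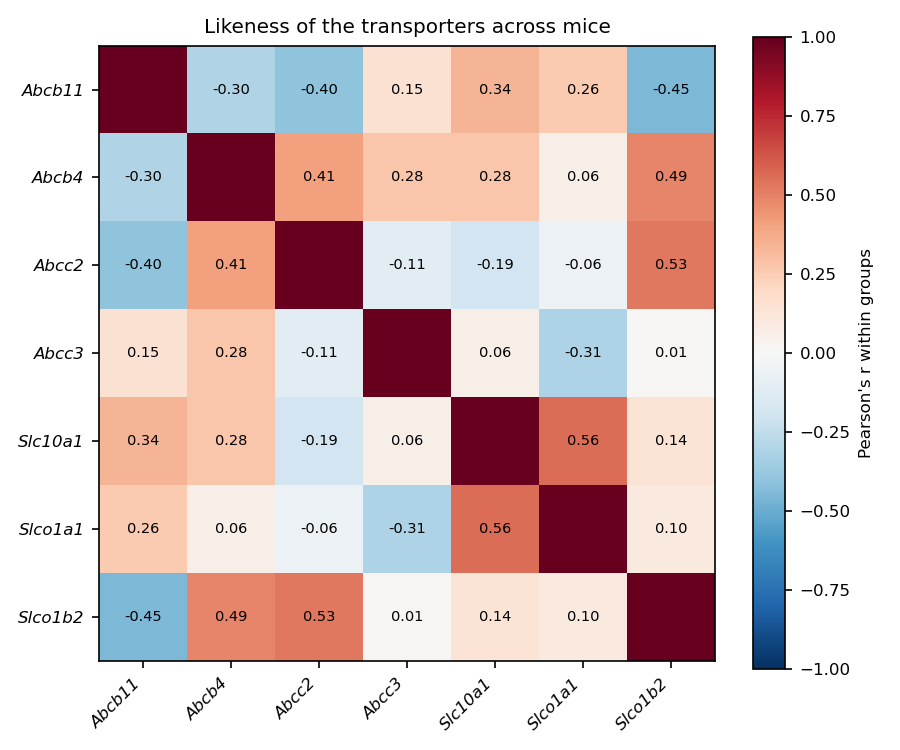
Pearson's r of the log2 levels of each pair of the 7 measured members after subtracting the group means, over 18 mice (15 for pairs with Abcb11). Colours run from -1 (blue) to 1 (red); the highest pair is Slc10a1 with Slco1a1 at 0.56 and the lowest Abcb11 with Slco1b2 at -0.45.

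The genes most like each member were taken from 12915 genes by Pearson's r of log2 levels over 18 mice (15 for Abcb11), group differences included. For Abcb4 they were Abcb1b (0.95, Spearman 0.92), Fitm2 (0.94, Spearman 0.94) and Rabggtb (0.94, Spearman 0.97), so that by Spearman's measure Rabggtb was the nearest of the 3. For Abcb11 they were Ppp2r3a (0.91), Srrm2 (0.85) and Gnb2 (0.82), and for Abcc2 Tmem87b (0.80), Hnrnpa2b1 (0.79) and Chd3 (0.79). For Abcc3 they were Prkcq (0.73), Cep72 (0.72) and App (0.71), the lowest of the sets. Slc10a1 was nearest to Lsm2 (0.86), Cpsf1 (0.84) and Ntsr1 (0.84), Slco1a1 to Hepacam (0.78), and Slco1b2 to Fzd5 (0.86), Ncor1 (0.85) and Aaas (0.84). Being the highest of many, these values come from a search and have no test.

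Abcb1b, the P-glycoprotein paralog of Abcb4, had the highest Pearson's r with any member. On chromosome 5 of mm8 its read probe (A_52_P170509) starts at 8867447, between the probes of Abcb1a and Abcb4. That probe read 2.15, 2.08, 1.88, 1.99, 2.08 and 1.71 in controls 1 to 6, 1.06, 1.51, 1.71, 1.57, 1.50 and 1.53 in low-dose mice and 2.03, 1.10, 2.03, 1.76, 2.08 and 1.24 in high-dose mice. No low-dose mouse exceeded the lowest control, and high-dose mice 2 and 6 were low, as they were for Abcb4. Groups that do not overlap were found for 1.78% of all genes in this comparison. The low-dose difference was -0.50 ± 0.17 (interval -0.85 to -0.15, limma adjusted p = 0.236), and -0.21 with normexp. Within groups Abcb4 and Abcb1b correlated at r = 0.93 over 18 mice (Spearman 0.85). Probe sequences were not used here, so whether either probe also binds the other paralog's transcript was not tested.

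**Figure D4:**
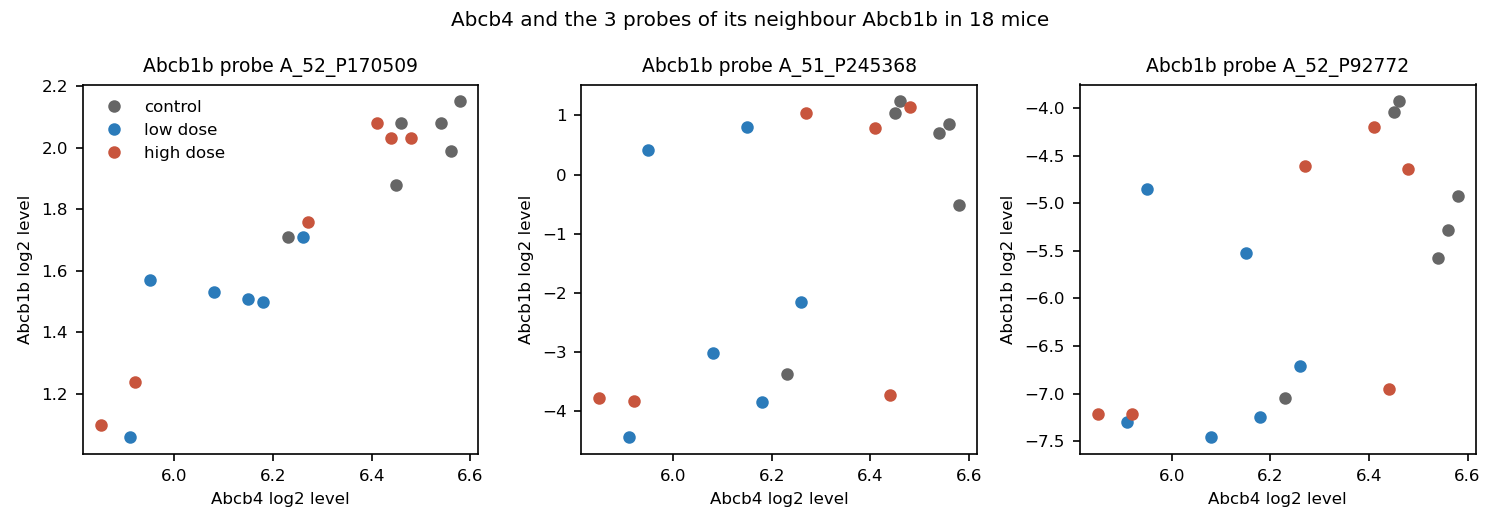
Log2 level of Abcb4 (horizontal axis) against each of the 3 Abcb1b probes (vertical axes, log2 level) in 18 mice, coloured by group. The first probe follows Abcb4 closely (r = 0.95), while the other 2 probes (r = 0.60 each) are spread more widely.

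Among other uptake carriers 12 of 15 listed genes were measured and 0 passed in any comparison. At the low dose 7 were higher and 5 lower, with 3 under an unadjusted limma p of 0.05, against 11.6% of all genes. The carnitine carrier Slc22a5 (OCTN2) had the smallest p. It read 0.87, 0.13, -0.15, 0.55, 0.26 and 0.02 in controls and -1.40, -0.66, -0.61, -0.59, -0.46 and -0.54 in low-dose mice. These groups did not overlap, as was the case for 1.78% of all genes. High-dose mice read 0.31, -0.60, 0.21, -0.66, 0.30 and -0.48, with 3 mice within the control range and 3 below it. Low minus control was -0.99 ± 0.22, 0.504 times control (limma adjusted p = 0.0756), with -1.10 to -0.79 within 4 slides. Its other probe, A_52_P656659, also gave -0.99. With array weights it was called (-0.91, adjusted p = 0.049); with slide as a block it was -0.85 (adjusted p = 0.224) and with brightness as a covariate -0.61. High minus control was -0.43 (adjusted p = 0.744), and high minus low 0.56 (adjusted p = 0.551).

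The apical bile acid carrier Slc10a2 (ASBT), best known from ileum and bile duct cells, read 0.86 ± 0.36 above control at the low dose (limma adjusted p = 0.361) and 0.38 at the high dose. The prostaglandin carrier Slco2a1 differed by -0.35 (adjusted p = 0.37) and the monocarboxylate carrier Slc16a1 by -0.28 (adjusted p = 0.477), but by -0.04 and 0.07 with normexp. Other Slc16a1 probes gave -0.75 ± 0.28 (A_52_P245119, limma adjusted p over all probes = 0.274) and -0.21 ± 0.19 (A_51_P397363) at the low dose. At the high dose the smallest p belonged to Slc22a5, Slco2a1 (-0.28), Slc22a18 (0.19) and Slc22a7 (0.41). Between the doses Slc22a18 differed by 0.22 (adjusted p = 0.649).

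Among other efflux carriers and their partners 13 of 15 were measured, and 0 passed in any comparison. At the low dose 2 were under an unadjusted limma p of 0.05 (Abcb1b and Slc51b), against 11.6% of all genes. At the low dose the basolateral bile acid exporter subunit Slc51b (OSTβ) read 0.96 ± 0.35 above control (limma adjusted p = 0.281), but 0.01 with normexp and 0.40 with brightness as a covariate. The measured genes beside Slc51b and Abcb1b, which include the sterol exporters Abcg5 (-0.01) and Abcg8 (-0.12), the canalicular exporter Abcg2 (-0.07) and the flippase Atp8b1 (-0.05), lay between -0.12 and 0.17 on the probe read for each gene. Other probes disagreed for Atp8b1, at 0.60 ± 0.23 (A_51_P192329, limma adjusted p over all probes = 0.284), 0.26 and 0.28, and gave -0.25 for Abcg2 and -0.27 for Abcg8. Probes not read for their gene also gave 0.46 ± 0.33 for Tmem30a (-0.10 on the read probe) and 0.39 ± 0.26 for Abcc5 (-0.07). For Abcc1 such a probe gave 0.26 ± 0.13 (0.17 on the read probe). The 7 cholangiocyte markers measured of 10 stood beside these: Krt19 read 0.79 above control at the low dose (adjusted p = 0.14) but -0.13 with normexp. Their summed level ran from 3.20 to 4.45 in controls, 3.36 to 4.85 at the low dose and 3.40 to 6.52 at the high dose, and Cftr and Cldn4 were among those not kept by the filter. Their part in the Slc10a2 and Slc51b values was not tested.

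**Figure D5:**
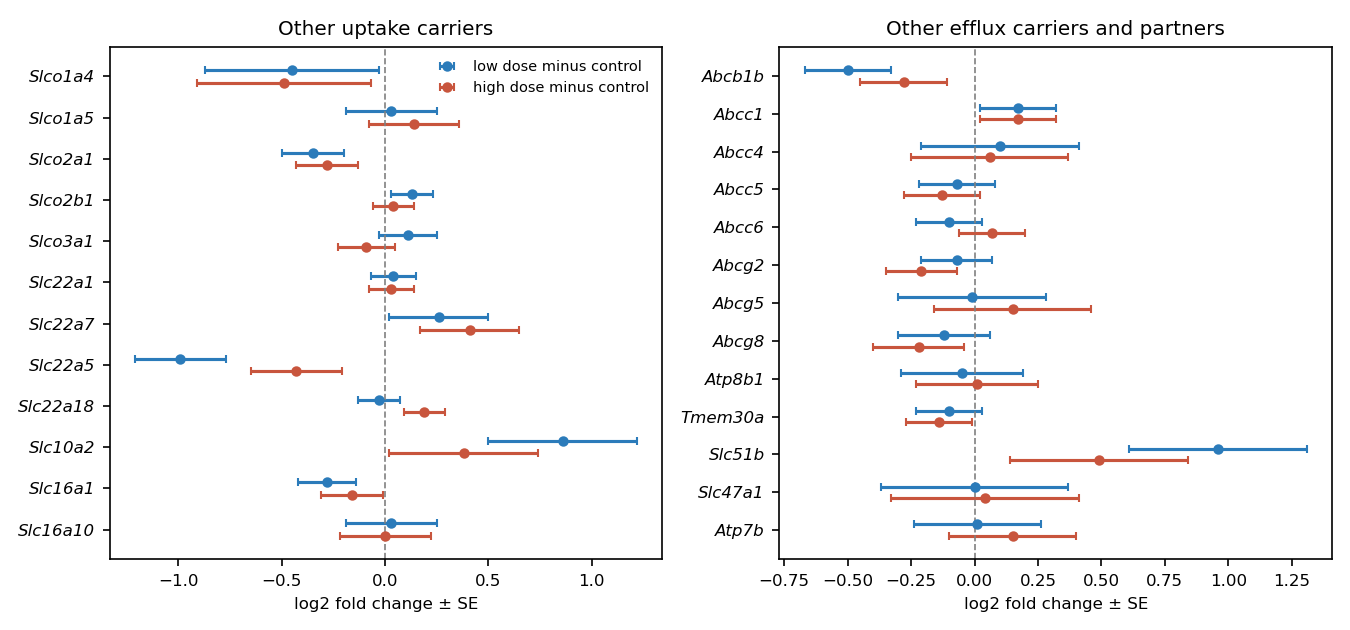
Log2 fold change ± SE (horizontal axis) of 12 other uptake carriers and 13 other efflux carriers and partners, low dose minus control in blue and high dose minus control in red. Slc22a5 is the lowest at -0.99 and Slc51b the highest at 0.96, both at the low dose, and none was called.

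Genes that tether carriers to the membrane or seal the canaliculus (scaffolds and tight junctions, 11 measured) showed 0 calls, with low-dose differences from -0.21 (Pdzk1, a scaffold of organic anion carriers; 0.14 with normexp) to 0.26 (Cldn2). Of 14 measured transcription factors known to control hepatic carriers 0 passed. At the low dose 2 were under an unadjusted limma p of 0.05, against 11.6% of all genes. The FXR gene Nr1h4 ran from 4.16 to 4.62 in controls, 3.69 to 4.19 at the low dose and 4.24 to 4.58 at the high dose, so that low-dose and high-dose mice did not overlap, as was the case for 0.549% of all genes. Low minus control was -0.36 ± 0.10 (limma adjusted p = 0.16) and high minus low 0.45 ± 0.10 (adjusted p = 0.17); with normexp these were 0.01 and 0.29. The receptor CAR, Nr1i3, differed by -0.78 at the low dose (adjusted p = 0.231; -0.45 with normexp).

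Of 13 bile acid synthesis genes 0 passed, with 5 under an unadjusted limma p of 0.05 at the low dose, against 11.6% of all genes. At that dose 12 lay below control with a median of -0.30, against -0.02 over all genes. With normexp 5 of the 13 lay below control, with a median of 0.05, so the common direction depends on the background correction. Slc27a2, an acyl-CoA synthetase, differed by -0.69 ± 0.15 (limma adjusted p = 0.077), and the groups did not overlap, as for 1.78% of all genes. Cyp7a1, the rate-limiting enzyme of bile acid synthesis, differed by -1.94 ± 0.73 (adjusted p = 0.288), with -3.70 to -0.56 within 4 slides, and the peroxisomal enzyme Amacr by -0.33 (adjusted p = 0.171). With normexp Slc27a2 differed by -0.32, Cyp7a1 by -1.16 and Amacr by 0.02. At the high dose the median was -0.07, with Cyp39a1 at -1.09 (adjusted p = 0.642) and Cyp8b1 at -0.90 (adjusted p = 0.712). The 9 measured hepatocyte markers summed to 10.06 to 10.53 in controls, 9.90 to 10.29 at the low dose and 9.97 to 10.23 at the high dose. Of these 9, 3 were under an unadjusted limma p of 0.05 at the low dose, against 11.6% of all genes. The 3, Alb (-0.38), Fgb (-0.38) and Apoa1 (-0.37), were saturated on 18, 18 and 17 arrays. At the low dose 6 of the 9 markers lay below control and 2 above it. With normexp 2 lay below and 6 above, and Alb, Fgb and Apoa1 differed by -0.02, -0.02 and 0. The part of the hepatocyte markers in the members' values was not tested. The measured markers of Kupffer (9), endothelial (8), stellate (8) and lymphoid cells (8), 13 targets of xenobiotic and oxidant sensors and 13 male-predominant genes held 0 calls in any comparison.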

How the data were processed

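Liver RNA of 18 mice (3 groups of 6) was measured on 1-colour Agilent arrays. The deposited scanner files hold the authors' processed intensity per spot from Agilent Feature Extraction (9.5.3.1 per the file headers; 9.5 and limma per the submitters' processing notes). The deposited value table holds log2 values of the same arrays, used as an alternative; how the authors scaled it is not given in the sources used here. From the scanner files, log2 intensity minus each array's 75th percentile was computed, spots marked as outliers were dropped, replicate spots averaged, and probes well above background on at least 6 arrays kept. The brightest kept probe stood for a gene. limma 3.58.1 (R 4.3.3, lmFit and eBayes) was fitted to all 18 arrays by group, with Benjamini-Hochberg adjustment over all genes and a threshold of 0.05. The fit was also run on simulated data with independent normal noise. There 24.2% (low dose) and 22.7% (high dose) of genes given a log2 change of 0.5 in size were called. For a change of 1 these were 70.1% and 65.7%, so small differences are often missed. Probe positions are those of mm8 in the files, and annotated exons or UTRs were not used here. The array's names were updated through RefSeq for 17204 kept probes.

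The members and lists were chosen with earlier results of these data known. Named genes were the members with every probe, their 3 nearest genes, and from each list the genes with the smallest p, of which fewer are printed for lists beside the transporters. P-values measure the spread between the mice of this study. Same-numbered mice were not treated as pairs. Alternatives covered scaling, background, filter, probe choice, slide, array weights, leaving out each mouse and the value table; keeping marked spots and adjusting for array brightness were chosen after seeing the data. A few genes that these rules name are not reported here.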

Additional observations from a re-analysis of the deposited data

Results flagged for a closer look

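Of 30 combinations of a member's probe and a group, 2 held a mouse that stood apart from the rest of its group by Dixon's criterion, and chance gives about 1 in 20. Both were of the bile acid carrier Slc10a1. Control mouse 3 read 5.70, where the nearest of the other controls read 5.42, a gap of 0.87 of the group's range. High-dose mouse 2 read 4.44, where the nearest read 5.17, a gap of 0.63 of the range. No explanation was tested.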

How the results depend on the processing

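No member was called under any alternative with adjustment over all genes. The exact permutation test without adjustment put 2 members under 0.05 at the low dose, 1 at the high dose and 0 between the doses. Array weights called 1 other transporter at the low dose, Slc22a5. With mouse number as a replicate block 0 members were called and the count over all genes at the low dose was 5 in place of 43; 7 of 18 same-numbered pairs deviated together at r over 0.1 (range -0.31 to 0.35), and since pairing was taken only where every pair did, the mice were not treated as paired. As a hint the other way, 10 of 18 mice were closest to a mouse of their own number, which 2 of the 12 mice in other groups carry. Within each number some mice of different groups shared a slide, for example control and high-dose mouse 1. The part of slide in this closeness was not tested.

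The count over all genes at the low dose moved more than 1.5 times with the array median as scale (8), normexp (7), no filter (9), detection on all arrays (70), the mean of all probes (15), slide as a fixed block (2), only the groups compared (79), array weights (143) and brightness as a covariate (0, where the cause was not tested). Normexp moved the median of all genes to -0.10 at the low dose, with 41.9% higher in place of 45.7%.

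Of 354 member fold changes under other settings 336 kept their direction, but some of these could not turn. The exact permutation test, each probe tested alone, no filter, detection on all arrays and only the groups compared leave a member's fold change unchanged. Taking only probes saturated on no array drops Slco1b2 and leaves the other members unchanged. The mean of all probes leaves members with 1 probe unchanged. The values that turned did so with normexp at the low dose (Abcb11 0.23, Slc10a1 0.16, Slco1a1 0.36, Slco1b2 0.18), at the high dose (Slco1a1 0.11, Slco1b2 0.05) and between the doses (Abcb11 -0.28, Abcb4 -0.07, Abcc3 -0.04, Slco1b2 -0.13). Slco1a1 at the low dose turned to 0.02 with quantile normalization and 0.04 in the value table, and Slco1b2 at the high dose to 0.03 and 0.04. Abcb11 at the high dose came to 0.00 with slide or mouse number as a block, Slco1a1 between the doses to 0.00 with array weights, and Abcc3 at the high dose to 0.02 with the brightness covariate. The cause was not tested.

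Leaving out 1 mouse turned 20 of 378 values, all of small size, and a mouse of the group outside a comparison cannot turn its value. The ranges were -0.06 to 0.10 for Abcc2 and -0.07 to 0.03 for Slco1a1 at the low dose, -0.33 to 0.01 for Abcb11 and -0.16 to 0.02 for Slco1a1 at the high dose, and between the doses -0.17 to 0.17 for Abcb11, -0.12 to 0.12 for Slc10a1 and -0.14 to 0.04 for Slco1a1. Abcb1a and the dimmer Abcc3 probe are limited by signal over background, and Slco1b2 by saturation.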

Other observations

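Another Abcb1b probe, A_51_P245368, which was singled out after its values were seen, was well above background on all 18 arrays and read widely separated levels. Controls 1 to 6 read -0.52, 1.24, 1.05, 0.86, 0.71 and -3.37. Low-dose mice 1 to 6 read -4.45, 0.80, -2.16, 0.41, -3.85 and -3.02, and high-dose mice 1.15, -3.79, -3.73, 1.04, 0.79 and -3.83. The third probe, A_52_P92772, well above background on 6 arrays, read -3.93 and -4.04 in controls 2 and 3 and -7.05 in control 6. The low-dose difference of A_51_P245368 was -2.04 ± 1.19 (SE; limma adjusted p over all probes = 0.528), and no explanation was tested.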
